A study of Mus musculus with 26 samples.

Results

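NF-kB and NFAT are the 2 families of transcription factors that carry much of the signal of the T cell receptor to the nucleus, and 10 genes of their core were followed here through positive selection. The genes were chosen by name: Nfatc1, Nfatc2 and Nfatc3 of the NFAT family, the NF-kB subunits Nfkb1, Nfkb2, Rel, Rela and Relb, and the inhibitors Nfkbia and Tnfaip3. They are 10 of the 46517 gene symbols in the table, and all 10 were among the 16372 that passed a filter on low values (at least 10 normalized counts in at least 2 of the 26 libraries). RNA was sequenced in bulk from sorted thymocytes of 3 mouse lines whose CD8 T cells carry a transgenic receptor of low (TG6), intermediate (F5) or high (OT-1) self-reactivity. In each line, early positive selection stands for sorted CD4+CD8+CXCR4+CCR7- cells, late positive selection for CD4+CD8+ cells that were CXCR4-CCR7+, and mature CD8 single positive (CD8SP) for CD4-CD8+ cells with the same CXCR4-CCR7+ phenotype, with 3 biological replicates each, numbered in the labels, and 2 for TG6 at the late stage. TG6 mice carried TG6tg on H2b/d, from a cross of C57/BL6 with B6.C-H2d/bByJ, and no Rag knockout is named for them. F5 mice carried F5tg on Rag1KO and OT-1 mice carried OT-1tg on Rag2KO, both in the C57/BL6 strain. Each line has 1 receptor, and the receptor changes between lines together with the Rag genotype and, for TG6, the MHC haplotype, so their parts in a difference cannot be told apart. The labels give no ages and no other treatment.

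NFAT proteins wait in the cytoplasm in a phosphorylated form. Calcium that enters the cell after receptor contact activates calcineurin, a phosphatase, which strips them of phosphate so that they move to the nucleus, and Nfatc3 is known as a prominent family member of CD4+CD8+ thymocytes. NF-kB subunits bind DNA as pairs and are held back by IkB proteins such as IkBα, the product of Nfkbia, which is destroyed after receptor or TNF receptor signals. Rela, Rel and the p50 form of Nfkb1 serve the fast canonical pathway, and Relb with the p52 form of Nfkb2 serves the slower noncanonical pathway. Several of these genes are themselves textbook targets of NF-kB, among them Nfkb2, Rel, Relb, Nfkbia and Tnfaip3, whose product A20 switches the pathway off. All values here are RNA levels, and the position of a protein in the cell was not measured.

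The bases that NF-kB pairs recognise, the kappa-B site, were searched in the 250 bases before each annotated start, because several members are known NF-kB targets. RefSeq start sites (GRCm38.p6) were given for 7 of the 10 members and not for Nfatc1, Nfkb1 and Relb, which were not searched. The 7 members have 12 windows, of which 6 held a match to the 10-letter kappa-B consensus on 1 or both strands. Of all 32851 windows of the same length, 7.25% held a match. The windows with a match belong to Nfkb2, Rel, Nfkbia and Tnfaip3, and those without to Nfatc2, Nfatc3, Rela and a second start of Tnfaip3. The matches of the first listed start of each gene are shown 5′ to 3′ on the strand of the gene, with matched bases in capitals and the rest in lower case, and where matches overlap the capitals run together. The Rel stretch lies at chr11:23770971-23771119 (minus strand), the Nfkbia stretch at chr12:55492648-55492797 (minus strand), both Nfkb2 stretches at chr19:46304693-46304713 and chr19:46304721-46304736 (plus strand), and the Tnfaip3 stretches at chr10:19015521-19015540 and chr10:19015411-19015427 (minus strand).
Rel: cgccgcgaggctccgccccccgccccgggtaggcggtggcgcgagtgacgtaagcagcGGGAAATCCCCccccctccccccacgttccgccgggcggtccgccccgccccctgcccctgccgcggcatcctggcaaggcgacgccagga
Nfkbia: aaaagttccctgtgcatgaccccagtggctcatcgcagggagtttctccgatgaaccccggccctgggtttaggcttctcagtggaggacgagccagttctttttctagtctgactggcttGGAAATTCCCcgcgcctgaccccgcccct
Nfkb2, upstream match: gtcacGGGAATTCCCCccctc
Nfkb2, downstream match: cgaaaGGGGCTTTCCc
Tnfaip3, upstream match: acgcgGGGACACCCCggggc
Tnfaip3, downstream match: ccatcGGAAATCCCCct
The matches begin 92 bases before the start of Rel, 29 before that of Nfkbia, 39 and 11 before that of Nfkb2 and 125 and 12 before that of Tnfaip3. The second and the third start of Nfkb2 each have 1 match, 236 and 225 bases before them, which are not shown. By GENCODE, whose genes begin at the most upstream annotated start, the Nfkb2 and Tnfaip3 stretches lie inside the annotated span of these genes, those of Nfkb2 in an exon and those of Tnfaip3 in no exon, and the Rel and Nfkbia stretches lie before the gene. A match describes these letters and does not show that a factor was bound in these cells.

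The libraries were checked before the comparisons. Their totals ranged from 16134786 to 18944173 normalized counts. Cd3e, a T cell identity gene, was at 4798 or above in every library. The markers of granulocytes and of NK cells summed to at most 13.9 and 17.3, those of thymic epithelium to 40.0 to 91.0, with Foxn1 and Krt5 at most at 0.979 and 2.02 and Psmb11 and Epcam giving up to 42.3 and 47.7, and those of B cells to 121 to 336. The stromal and endothelial markers summed to 1942 to 3732, of which Pecam1 gave 1799 to 3627 and the other 5 at most 174.9 each. Markers of dendritic cells and macrophages summed to between 51.0 and 2437, of which Cd74, the invariant chain of MHC class II, gave 8.95 to 1253, while Itgax, Csf1r and Adgre1 had libraries at 0 and reached at most 52.2. Some libraries stand apart. The F5 replicate 1 libraries were the highest of their groups in Tnfaip3, Nfatc1, Nfatc2 and Rel at all stages. The OT-1 replicate 3 libraries were the lowest of theirs in Tnfaip3, Rel and Nfatc2, and their erythroid markers summed to 1102 to 1280.5 against at most 682 elsewhere. TG6 mature replicate 3 had a summed level of 61806 for 10 cell division genes, against 15585 and 17159 in the other mature TG6 libraries. For the same genes the late F5 libraries were at 502, 514.5 and 7510.5 and the mature F5 libraries at 17110, 27778 and 49564. Of the sorting markers, Ccr7 rose from early to late cells in each line, by 5.81 on the log2 scale in TG6, 4.45 in F5 and 3.60 in OT-1. The early cells of OT-1 and TG6 also differed in these markers: Ccr7 was at 779 ± 115 in OT-1 and 147 ± 46.1 in TG6 (mean ± SD, n = 3 each), Cxcr4 at 2022 ± 775 and 5161 ± 495, Cd4 at 8026 ± 76 and 22113 ± 800.4, and Cd8a at 17780.3 ± 2013 and 38031 ± 2756. The log2 fold changes (± SE, as throughout) of OT-1 over TG6 were 2.43 ± 0.35, adjusted p = 1.8e-05 for Ccr7, -1.41 ± 0.43, adjusted p = 0.0176 for Cxcr4, -1.46 ± 0.50, adjusted p = 0.0319 for Cd4 and -1.10 ± 0.12, adjusted p = 5.84e-07 for Cd8a, by limma. The 7 T cell identity genes summed to 64162 to 71876 in early OT-1 cells and 98770.2 to 108626 in early TG6 cells, and 3 of the 7 were called lower and 1 higher in OT-1 (12.4% and 15.4% of all genes). The part of this in the early comparisons between these lines was not tested.

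Compared per kilobase by the union of annotated exons, the inhibitors had the highest group means of the 10 transcripts in TG6 and OT-1 and Relb or Nfatc2 the lowest. By this length, Tnfaip3 and Nfkbia took the first and second places by group mean, F5 included. At early positive selection in TG6, Nfkbia was at 1507 ± 353 normalized counts per kb, Tnfaip3 at 1265 ± 228 and Nfatc3 at 1195 ± 148 (mean ± SD, n = 3), so these 3 overlap within their spread. Rela followed at 519.7 ± 12.3, then Nfatc1 at 258 ± 14.1, Nfkb1 at 139.8 ± 1.84 and Nfkb2 at 99.6 ± 19.5. Rel at 81.8 ± 10.4 did not differ from Nfkb2 beyond the spread, and Nfatc2 at 52.8 ± 2.86 and Relb at 29.3 ± 3.1 came last. In OT-1 at the same stage Tnfaip3 led at 3300.4 ± 1231, ahead of Nfkbia at 1845 ± 611, and Relb was again last at 66.4 ± 11.2. In F5 the order rests on replicate 1. Without it, and with 2 libraries left a group, Nfkbia (1072 per kb) was followed by Nfatc3 (905) and Tnfaip3 (777) in early F5 cells, Rela (596) came before Nfkbia (542) in late F5 cells, and in mature F5 cells Nfkbia (598), Tnfaip3 (570.0, libraries at 372 and 768), Rela (562) and Nfatc3 (540) were close. The order also depends on the length used. With the longest annotated transcript, Nfatc3 came first in early TG6 (2342) and early F5 cells (1774), Nfkbia was in place 3 in all F5 groups, and Nfkb1 went from 139.8 to 406.4 in early TG6 cells and to place 3 in late TG6 and late OT-1 cells. By that length Nfatc3 (1045.5) also came before Nfkbia (935.8) in mature OT-1 cells, and Rel (170.3) was last in mature TG6 cells.

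From early to late positive selection, the shares of the NFAT genes shifted in all lines. Those of the NF-kB subunits shifted in TG6 and OT-1 and less in F5, where Relb went from 2.79 to 3.32%. The NFAT shares are of the sum of Nfatc1, Nfatc2 and Nfatc3, which leaves out Nfat5 and Nfatc4. Nfatc3 made 79.2% of this sum per kb in early TG6 cells (77.4 to 81.9 over libraries), 73.7% in F5 (71.3 to 76.6) and 60.4% in OT-1 (58.6 to 62.0). At late positive selection its shares were 49.0%, 49.6% and 45.2%, and the share of Nfatc1 rose to between 40.1 and 40.7% in the 3 lines. Among the NF-kB subunits, Rela gave 59.8% of the level in early TG6 cells, 59.1% in F5 and 48.3% in OT-1. In late cells it gave 40.1% in TG6 and 33.9% in OT-1 but 55.4% in F5, and Relb gave 11.7% in TG6, 10.8% in OT-1 and 3.32% in F5. With the longest transcript as the length, the shares of Nfatc3 in early cells were 82.7, 77.9 and 65.8% in TG6, F5 and OT-1, and Nfkb1 gave 33.1 to 44.4% of the NF-kB subunits over the 9 groups, against 16.1 to 23.6% by the union of exons. These shares are descriptions and were not tested.

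**Figure D1:**
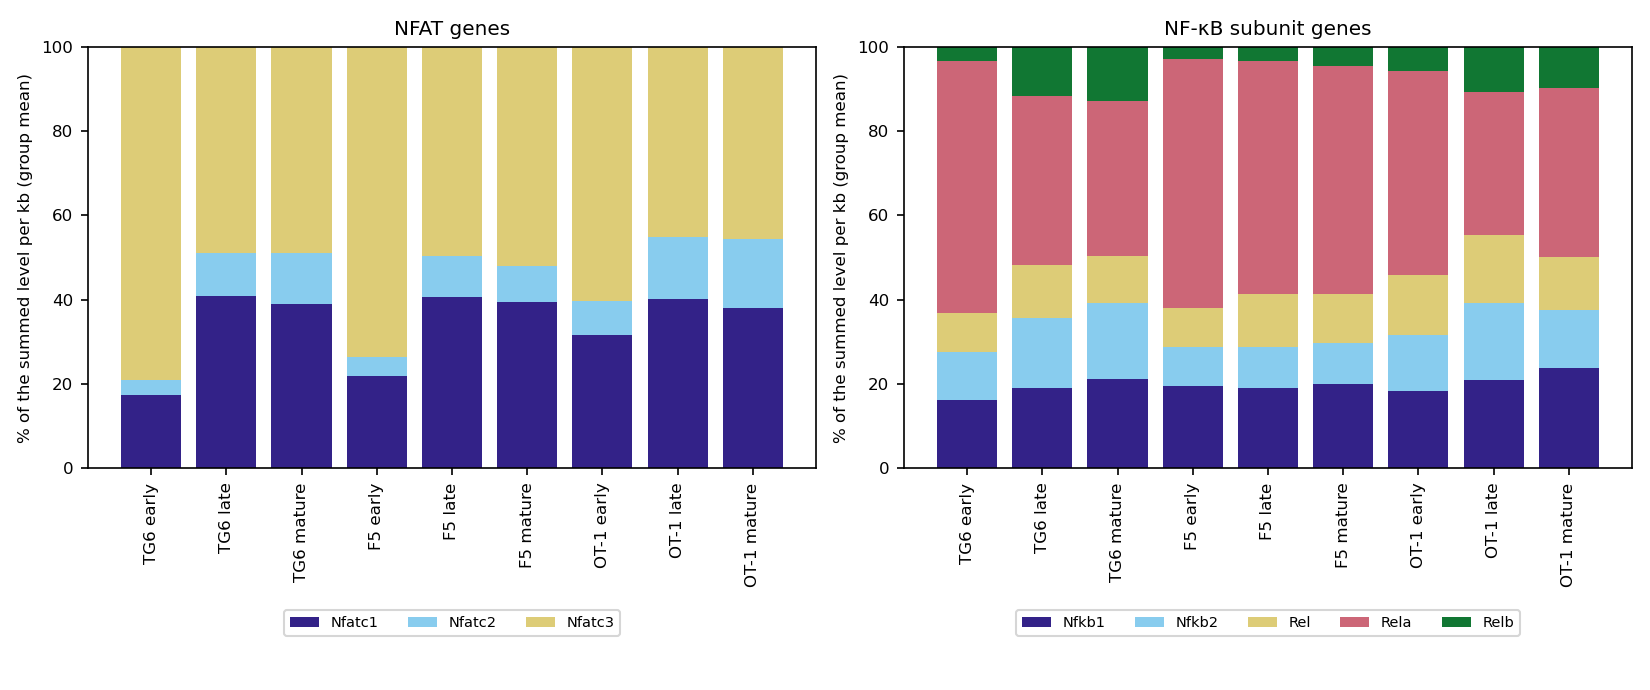
Share of each gene in the summed level per kilobase of exon of the followed members of its family, as the mean over the libraries of each of the 9 groups (y axis, percent). The sum of the NFAT genes holds Nfatc1, Nfatc2 and Nfatc3 only. Nfatc3 falls from 79.2% in early to 49.0% in late TG6 cells, and Relb is widest in late and mature TG6 and OT-1 cells and narrow in all F5 groups.

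The question of the study is how self-reactivity relates to gene expression as thymocytes go through positive selection, and the lines were compared within each stage. Differences are on the log2(normalized count + 1) scale from limma, which understates the change of genes at low levels, with p-values adjusted over all 16372 genes, and a gene counts as called at an adjusted p under 0.05. At early positive selection, 6 of the 10 members were called higher in OT-1 than in TG6 (15.4% of all genes were) and 1, Nfatc3, lower (12.4% of all genes). At late positive selection 2 members were called, both higher in OT-1 (9.34% of all genes), and in mature CD8SP cells 1 (4.67%). OT-1 against F5 gave 4 higher and 1 lower at the early stage (7.81% and 4.88% of all genes), 6 higher at the late stage (13.6%) and 4 higher at the mature stage (13.3%). F5 against TG6 gave 1 higher at the early stage (3.12%), and 3 lower at the late stage and 3 lower at the mature stage (3.23% and 4.50%). Statements that lines do not overlap are to be read against the share of all genes whose libraries do not overlap. In early cells that share was 46.7% for OT-1 and TG6, 36.1% for OT-1 and F5 and 31.2% for F5 and TG6. In late cells it was 52.1, 36.6 and 33.3%, and in mature cells 21.7, 38.7 and 16.9%. In bulk RNA, fewer cells of a kind and less RNA per cell cannot be told apart.

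From early to late positive selection, 5 members were called higher and 1 lower in TG6 (12.1% and 13.3% of all genes), 6 higher and 1 lower in F5 (12.7% and 14%), and 5 higher and 1 lower in OT-1 (12.7% and 14%). From the late to the mature stage, 0 members were called by limma in TG6 against 22.3% of all genes, with 0 at an unadjusted p under 0.05 as well. In F5 1 was called higher (12.2% of all genes), and in OT-1 3 were called lower (10.4%). With the replicate number as a block, which in F5 marks libraries that deviate together, the late to mature count in F5 became 2.

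**Figure D2:**
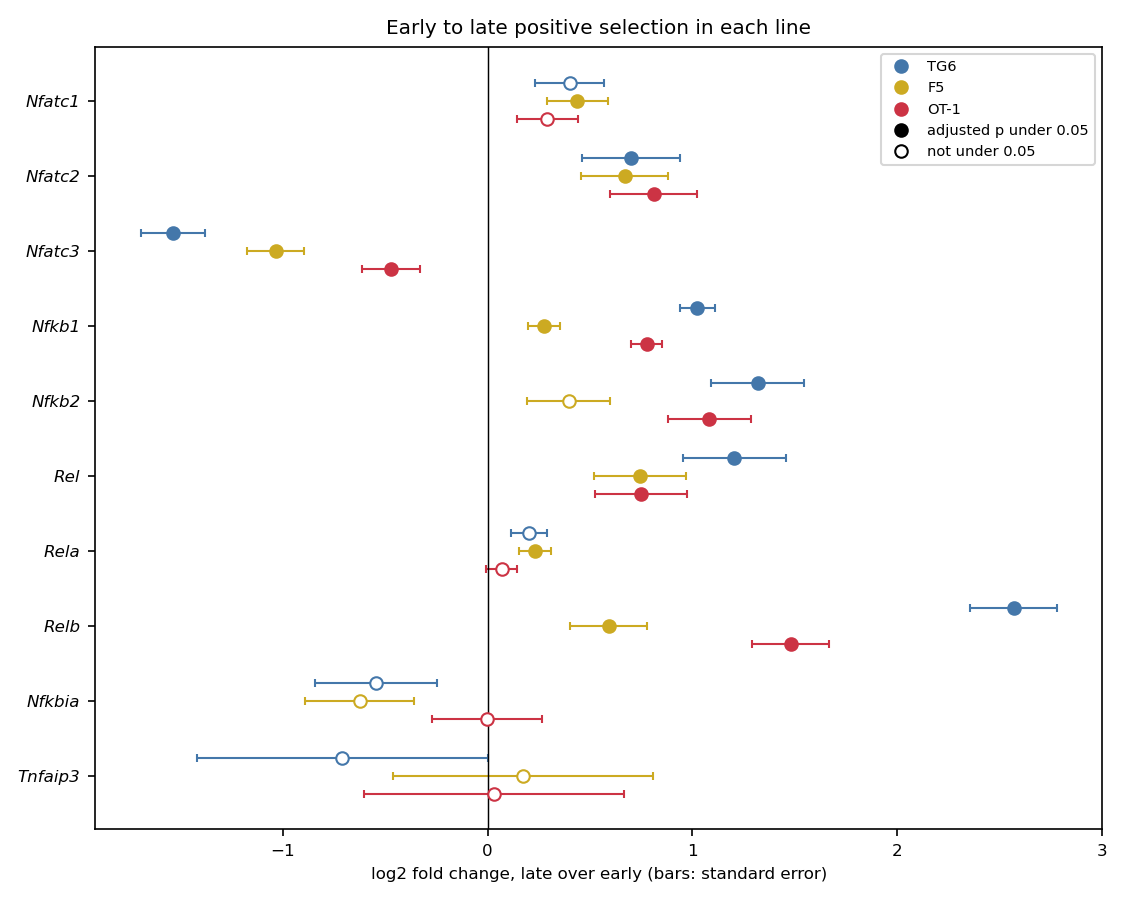
Log2 fold change from early to late positive selection (x axis) of each member in TG6, F5 and OT-1, with the standard error as bars and filled points where the adjusted p was under 0.05. Nfatc3 is to the left of 0 in all 3 lines and Relb lies farthest right in TG6, at 2.57, and in OT-1, at 1.48, while in F5 it is at 0.59, to the left of Rel at 0.74 and Nfatc2 at 0.67.

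Nfatc3 (chromosome 8, 106058840 to 106130537, plus strand) was highest in the early cells of the line with the lowest self-reactivity. The early libraries held 13739, 12427 and 15876 normalized counts in TG6, 10627, 9714 and 11503 in F5 and 7646, 7602 and 7971 in OT-1. Every TG6 library was above every F5 library and every F5 library above every OT-1 library. The log2 fold change of OT-1 over TG6 was -0.85 ± 0.14, adjusted p = 0.00011. OT-1 was also lower than F5 (-0.45 ± 0.14, adjusted p = 0.0369), a call lost without any 1 of 5 early libraries of these lines, with adjusted p between 0.0617 and 0.15, and F5 against TG6 was not called (-0.40 ± 0.14, adjusted p = 0.104) except without TG6 mature replicate 3 (0.0242) or after quantile normalization. In late cells Nfatc3 fell to 4916 and 4698 in TG6, 6168, 5058 and 4422 in F5 and 5702, 5758 and 5280.1 in OT-1. The log2 changes from early to late were -1.54 ± 0.16, adjusted p = 2.04e-07 in TG6, -1.03 ± 0.14, adjusted p = 9.72e-06 in F5 and -0.47 ± 0.14, adjusted p = 0.0158 in OT-1. The call in OT-1 was lost without OT-1 early replicate 3 (adjusted p = 0.0531) or OT-1 late replicate 3 (0.055). Mature cells held 4934, 4912 and 7474 in TG6, 7992, 6225 and 6437 in F5 and 6071, 6719.8 and 5978 in OT-1, and the lines overlapped. Without TG6 mature replicate 3, Nfatc3 was called lower in mature TG6 cells than in F5 (adjusted p = 0.0164) and OT-1 (0.0437). The rise from late to mature F5 cells was the 1 call of that step in F5 (0.40 ± 0.14, adjusted p = 0.0452) and did not hold when any 1 of 16 of the 26 libraries was dropped. Exons of Esrp2 overlap those of Nfatc3 on the opposite strand, and Esrp2 was at 3.21 to 672 over the libraries.

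Nfatc1 and Nfatc2 went the other way. Nfatc2 (chromosome 2, 168476410 to 168601657, minus strand) was the 1 member called higher in OT-1 than in both other lines at every stage. Its early libraries held 543, 539 and 593 in TG6, 741, 499 and 511 in F5 and 994, 994 and 818 in OT-1, and every OT-1 library was above all others. Late libraries held 910.0 and 905 in TG6, 1268, 802 and 751 in F5 and 1736, 1743 and 1448 in OT-1, again with OT-1 above. Mature libraries held 1479, 1417 and 980.5 in TG6, 1378, 772 and 981 in F5 and 2025, 2399 and 1728 in OT-1. The highest of the 26 values is thus in mature OT-1 cells, and F5 replicate 1 was the top of its group at each stage. Against TG6 the log2 fold changes of OT-1 were 0.74 ± 0.21, adjusted p = 0.0128 in early cells, 0.85 ± 0.24, adjusted p = 0.0176 in late cells and 0.68 ± 0.21, adjusted p = 0.0471 in mature cells. The mature call was lost when any 1 of 19 of the 26 libraries was dropped and under 6 other settings, and the late call without either TG6 late library or without OT-1 late replicate 1 or 2 (adjusted p 0.0551 to 0.112). Against F5 they were 0.70 ± 0.21, adjusted p = 0.0333, 0.84 ± 0.21, adjusted p = 0.00595 and 1.00 ± 0.21, adjusted p = 0.0019, and the early call was lost without F5 early replicate 2 or 3 or OT-1 early replicate 1 or 2 (adjusted p 0.109 to 0.143). Nfatc2 rose from early to late cells in all lines, by 0.70 ± 0.24, adjusted p = 0.0333 on the log2 scale in TG6, 0.67 ± 0.21, adjusted p = 0.0221 in F5 and 0.81 ± 0.21, adjusted p = 0.00669 in OT-1. The TG6 call was lost without any 1 early or late TG6 library (adjusted p 0.0517 to 0.142), and the F5 call without F5 late replicate 1 or F5 early replicate 2 or 3 (0.0895 to 0.15).

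Nfatc1, which can switch on its own transcription, moved less. The early libraries held 2029, 1938 and 1819 in TG6, 2209, 1916 and 1874 in F5 and 2461, 2726 and 2539.7 in OT-1, and OT-1 lay above both other lines. The log2 fold change of OT-1 over TG6 was 0.42 ± 0.15, adjusted p = 0.0421, and this call was lost without any 1 of the 6 libraries compared (adjusted p 0.064 to 0.13). OT-1 over F5 was not called (0.37 ± 0.15, adjusted p = 0.116), except under 2 of the 12 other settings. In late cells the values were 2573 and 2517 in TG6, 3498, 2275 and 2484 in F5 and 3327, 3228 and 2910.1 in OT-1, and in mature cells 3162, 3034 and 2479 in TG6, 4202, 2561 and 3366 in F5 and 3213, 3551 and 3216 in OT-1. No comparison between lines was called at these stages, except OT-1 over F5 in late cells without F5 late replicate 1 (adjusted p = 0.0438). From early to late cells the changes were 0.40 ± 0.17, adjusted p = 0.0869 in TG6, 0.44 ± 0.15, adjusted p = 0.0333 in F5 and 0.29 ± 0.15, adjusted p = 0.163 in OT-1. The TG6 step was called without F5 mature replicate 2 (0.0455) or F5 late replicate 1 (0.0444) and under 5 of the 12 other settings. The F5 call was lost without F5 late replicate 1 (0.221) or F5 early replicate 2 (0.0986) or 3 (0.11) and under 4 of the other settings. The step from late to mature F5 cells (0.29 ± 0.15, adjusted p = 0.19) was called with the replicate block (0.0182) and without F5 late replicate 1 (0.0228) or F5 mature replicate 2 (0.0306).

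**Figure D3:**
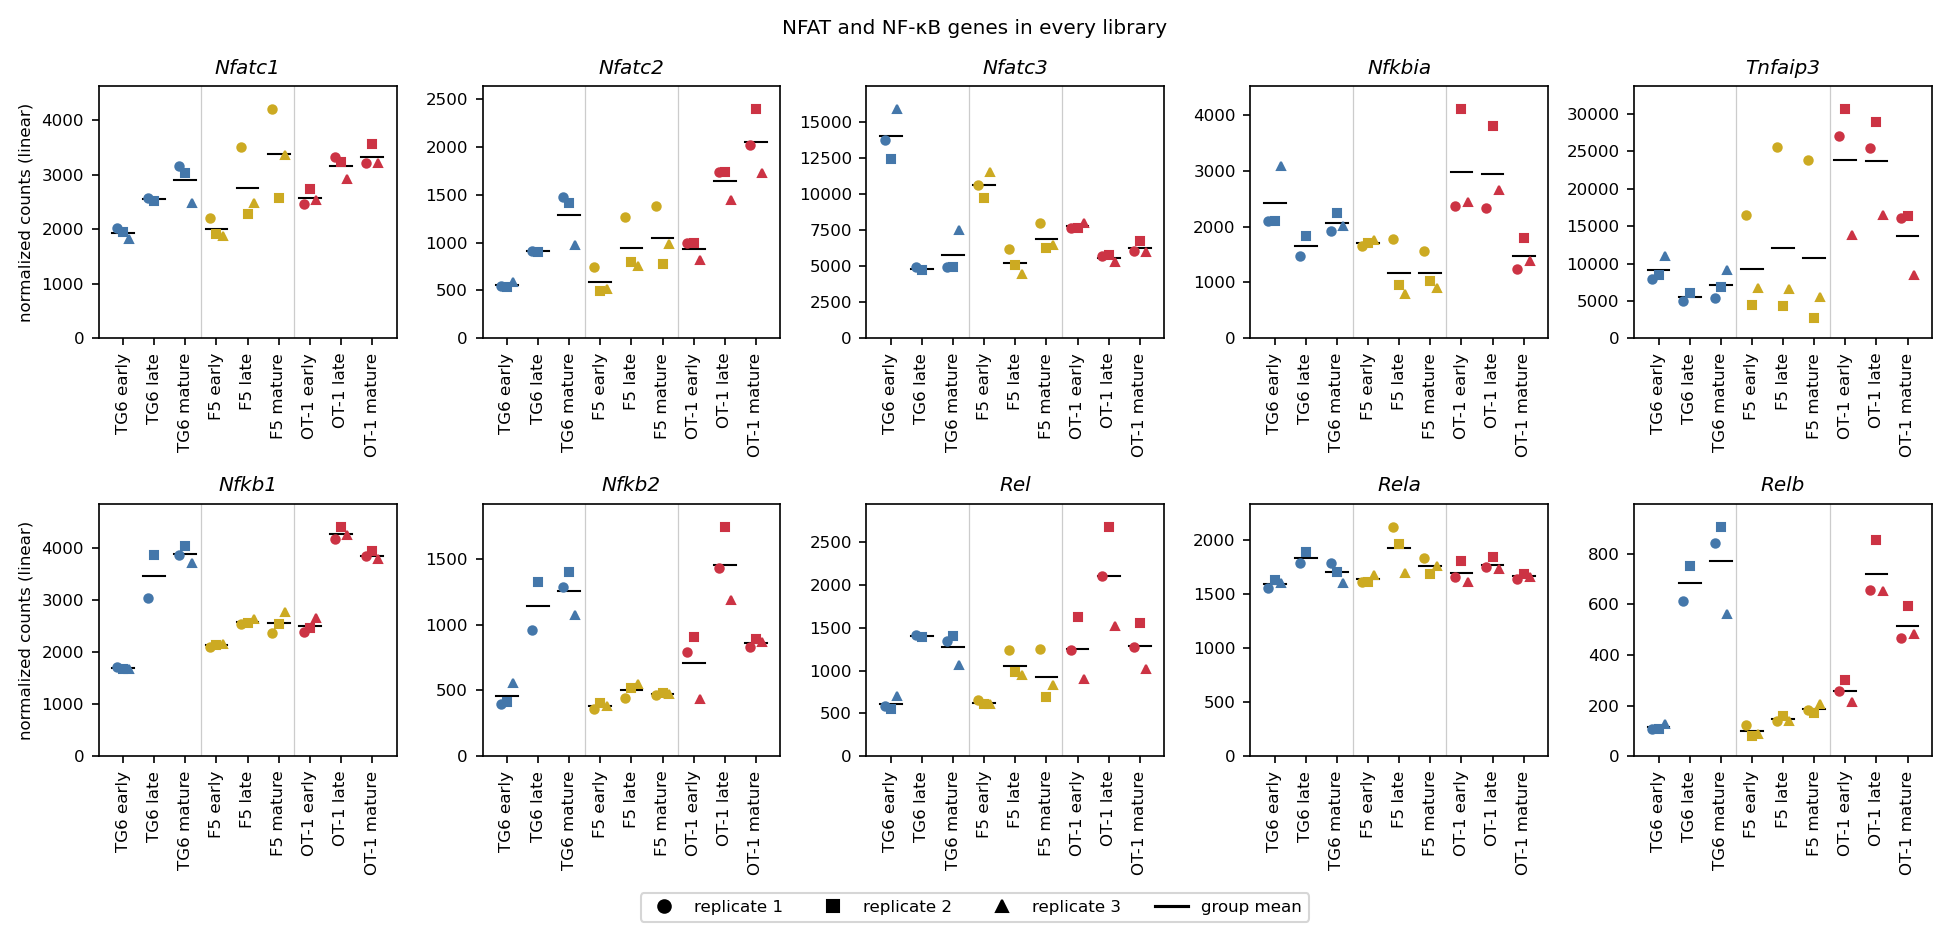
Normalized counts of the 10 members in each library (y axes, linear, each from 0), with 1 point per library, the replicate number as the symbol and the group mean as a line, for TG6 (blue), F5 (yellow) and OT-1 (red) at the early, late and mature stages. Nfatc3 is highest in the 3 early TG6 libraries (12427 to 15876), Relb stays at 79.9 to 205 in all F5 libraries, and the F5 replicate 1 libraries stand above the rest of their groups in Tnfaip3.

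Rela (chromosome 19, 5637483 to 5648130, plus strand), the main activating subunit of the canonical pathway, was the most even member. All 26 libraries lay between 1555 and 2123 normalized counts. Between lines it was called at no stage, with log2 fold changes of OT-1 over TG6 of 0.08 ± 0.08, adjusted p = 0.456 in early cells, -0.05 in late cells and -0.03 in mature cells. Its 1 call between stages was the step from early to late in F5 (0.23 ± 0.08, adjusted p = 0.0306), from 1616, 1612 and 1680.3 to 2123, 1967 and 1696, which was lost without any 1 of 5 early or late F5 libraries (adjusted p 0.0501 to 0.162).

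Rel (chromosome 11, 23736847 to 23770970, minus strand), which encodes c-Rel, the subunit tied to lymphocyte activation, was higher in early OT-1 cells than in those of both other lines. Its early libraries held 582, 551 and 699 in TG6, 662, 608 and 609 in F5 and 1240.0, 1621 and 898 in OT-1. TG6 and F5 overlapped and every OT-1 library was above both, with OT-1 replicate 3 the lowest of its group. The log2 fold change of OT-1 was 1.00 ± 0.23, adjusted p = 0.00223 over TG6 and 0.96 ± 0.23, adjusted p = 0.00615 over F5, and without OT-1 early replicate 2 the second was no longer called (adjusted p = 0.0575). In late cells Rel was at 1410.5 and 1393 in TG6, 1237, 988 and 945 in F5 and 2102, 2679.6 and 1523 in OT-1. OT-1 was above both, with 0.96 ± 0.23, adjusted p = 0.00327 over F5 and 0.55 ± 0.25, adjusted p = 0.156 over TG6. The change from early to late was 1.21 ± 0.25, adjusted p = 0.000973 in TG6, 0.74 ± 0.23, adjusted p = 0.0171 in F5 and 0.75 ± 0.23, adjusted p = 0.0171 in OT-1. The F5 call was lost without F5 early replicate 2 or 3 or F5 late replicate 1 (adjusted p 0.0513 to 0.0767), and the OT-1 call without OT-1 early replicate 3 or OT-1 late replicate 1 or 2 (0.0514 to 0.12). In mature cells the values were 1341, 1408 and 1066 in TG6, 1254, 691 and 835 in F5 and 1275, 1559 and 1020.0 in OT-1, and OT-1 and TG6 overlapped. OT-1 over F5 was 0.50 ± 0.23, adjusted p = 0.118, and it was called without F5 mature replicate 1 (0.0314). Rel fell from late to mature cells in OT-1 (-0.69 ± 0.23, adjusted p = 0.0294), a call lost without OT-1 late replicate 1 or 2 or OT-1 mature replicate 1 or 3 (adjusted p 0.0648 to 0.167).

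Nfkb1 (chromosome 3, 135584655 to 135691547, minus strand), which encodes p105 and from it p50, changed its order of lines with stage. Early libraries held 1711, 1670.1 and 1676 in TG6, 2098, 2134 and 2152 in F5 and 2379.9, 2463 and 2645 in OT-1, and the lines did not overlap. The log2 fold changes were 0.56 ± 0.08, adjusted p = 1.27e-05 for OT-1 over TG6, 0.34 ± 0.08, adjusted p = 0.00974 for F5 over TG6 and 0.23 ± 0.08, adjusted p = 0.0585 for OT-1 over F5. The last was called without TG6 late replicate 1 or 2 or TG6 mature replicate 3 (adjusted p 0.0299 to 0.0397). Late libraries held 3045 and 3871 in TG6, 2548, 2552 and 2643 in F5 and 4171, 4406 and 4246 in OT-1. F5 was now the lowest, at -0.41 ± 0.09, adjusted p = 0.00495 against TG6, and OT-1 was the highest, at 0.73 ± 0.08, adjusted p = 4.93e-07 against F5 and 0.32 ± 0.09, adjusted p = 0.0166 against TG6. The TG6 comparisons rested on 2 libraries that differed: F5 against TG6 was not called without TG6 late replicate 2 (adjusted p = 0.293), and OT-1 against TG6 was not called without TG6 late replicate 1 (0.419) or OT-1 late replicate 2 (0.0563). Mature libraries held 3872, 4043 and 3711 in TG6, 2372, 2529.9 and 2769 in F5 and 3838, 3946 and 3779 in OT-1. TG6 and OT-1 overlapped (-0.01 ± 0.08, adjusted p = 0.966), and F5 lay under both (-0.60 ± 0.08, adjusted p = 1.24e-05 against TG6). Nfkb1 rose from early to late cells by 1.03 ± 0.09, adjusted p = 1.55e-08 on the log2 scale in TG6, 0.78 ± 0.08, adjusted p = 4.32e-07 in OT-1 and 0.28 ± 0.08, adjusted p = 0.0104 in F5. The step from late to mature TG6 cells (0.17 ± 0.09, adjusted p = 0.166) was called without TG6 late replicate 2 (0.0216).

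Nfkb2 and Relb, the pair of the noncanonical pathway, had like profiles, rising in TG6 and OT-1 and staying low in F5. Relb (chromosome 7, 19606217 to 19629438, minus strand) was at 108, 106 and 128 in early TG6 cells, 124, 79.9 and 89.3 in F5 and 257, 302 and 214 in OT-1. Every OT-1 library was above the others, and TG6 and F5 overlapped. The log2 fold change of OT-1 was 1.16 ± 0.19, adjusted p = 8.41e-05 over TG6 and 1.40 ± 0.19, adjusted p = 2.09e-05 over F5. Late libraries held 614 and 750.1 in TG6, 140.0, 158 and 139 in F5 and 657, 852 and 651 in OT-1. TG6 and OT-1 overlapped (0.07 ± 0.21, adjusted p = 0.861) and F5 was far under both, at -2.22 ± 0.21, adjusted p = 1.86e-07 against TG6 and, as OT-1 over F5, 2.29 ± 0.19, adjusted p = 1.07e-08. Mature libraries held 842, 906 and 564 in TG6, 182, 170.1 and 205 in F5 and 466, 591 and 483 in OT-1. F5 against TG6 was -2.02 ± 0.19, adjusted p = 8.7e-08, and OT-1 over F5 1.46 ± 0.19, adjusted p = 1.04e-05. OT-1 against TG6 was not called (-0.56 ± 0.19, adjusted p = 0.0616), but it was called lower in OT-1 without TG6 mature replicate 3 (adjusted p = 0.00397), without F5 early replicate 1 (0.0473) and after scaling to equal totals (0.0304). Relb rose from early to late cells by 2.57 ± 0.21, adjusted p = 8.73e-09 on the log2 scale in TG6 and 1.48 ± 0.19, adjusted p = 7.47e-06 in OT-1. In F5 the step was 0.59 ± 0.19, adjusted p = 0.0224, and it was not called without F5 early replicate 2 or 3 or F5 late replicate 2 (adjusted p 0.0743 to 0.123). The step from late to mature OT-1 cells (-0.48 ± 0.19, adjusted p = 0.0657) was called without F5 early replicate 1 (0.0496) or TG6 mature replicate 3 (0.0325).

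Nfkb2 (chromosome 19, 46304320 to 46312385, plus strand), which encodes p100 and from it p52, was at 398, 413 and 559.5 in early TG6 cells, 357, 404 and 383 in F5 and 789, 908 and 433 in OT-1. OT-1 replicate 3 lay within the range of TG6 and the other OT-1 libraries above it. OT-1 over TG6 was 0.58 ± 0.20, adjusted p = 0.0365, a call lost without OT-1 early replicate 1 or 2 or TG6 early replicate 1 or 2 (adjusted p 0.119 to 0.223) and under 5 of the other settings. OT-1 over F5 was 0.83 ± 0.20, adjusted p = 0.00831, a call lost without OT-1 early replicate 1 (adjusted p = 0.0538) or 2 (0.0789). Late libraries held 962 and 1323 in TG6, 443, 521 and 545 in F5 and 1433, 1743 and 1186 in OT-1, and mature libraries 1289.6, 1399.6 and 1070.3 in TG6, 468, 479 and 474 in F5 and 832, 888 and 866 in OT-1. F5 was under both other lines without overlap, with F5 against TG6 at -1.17 ± 0.23, adjusted p = 0.00219 in late cells and -1.39 ± 0.20, adjusted p = 6.14e-05 in mature cells. OT-1 over TG6 in mature cells was -0.53 ± 0.20, adjusted p = 0.102, and OT-1 was called lower without TG6 mature replicate 3 (0.0396) or OT-1 early replicate 3 (0.0323). The late call of F5 against TG6 was lost without TG6 late replicate 2 (adjusted p = 0.105). OT-1 over F5 was 1.52 ± 0.20, adjusted p = 9.75e-06 and 0.86 ± 0.20, adjusted p = 0.00433 at these stages. Nfkb2 rose from early to late cells in TG6 (1.32 ± 0.23, adjusted p = 0.000131) and OT-1 (1.08 ± 0.20, adjusted p = 0.000424), with 0.40 ± 0.20, adjusted p = 0.165 in F5. In OT-1 it then fell (-0.74 ± 0.20, adjusted p = 0.0115), a call lost without OT-1 late replicate 2 (adjusted p = 0.071). Exons of Psd and of AC114539.1 overlap those of Nfkb2 on the opposite strand, the latter also at the Nfkb2 stretches printed above. AC114539.1 was not analysed here, and Psd was at 45.6 to 337.

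Markers of other cells moved with Relb in part. Of the 10 dendritic cell and macrophage markers, 8 were called higher in early OT-1 than early TG6 cells (15.4% of all genes), with a median log2 fold change of 2.43. At the early, late and mature stages 5, 7 and 1 were called higher in OT-1 than in F5 (7.81, 13.6 and 13.3% of all genes). In late cells 3 were called lower in F5 than in TG6 (3.23% of all genes), and in mature cells 0 were called between these lines. Between early and late cells 3 were called higher in TG6 and 4 lower in OT-1, late over early (12.1% and 14% of all genes). The summed dendritic cell and macrophage markers were at 195 to 269 in early TG6 cells, 609 and 1075 in late and 1154 to 2437 in mature TG6 cells. In F5 they were at 88.2 to 562, 51.0 to 105 and 259 to 928, and in OT-1 at 408 to 1122, 415 to 477 and 831 to 1234 at the same stages. Of the 9 groups, the library with the highest sum had the highest Relb of its group in 3 (early TG6, late TG6 and early OT-1), the lowest in 4 (mature TG6, early F5, mature F5 and mature OT-1) and the middle value in 2. The part of such cells in Relb, Nfkb2 and the other members was not tested.

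**Figure D4:**
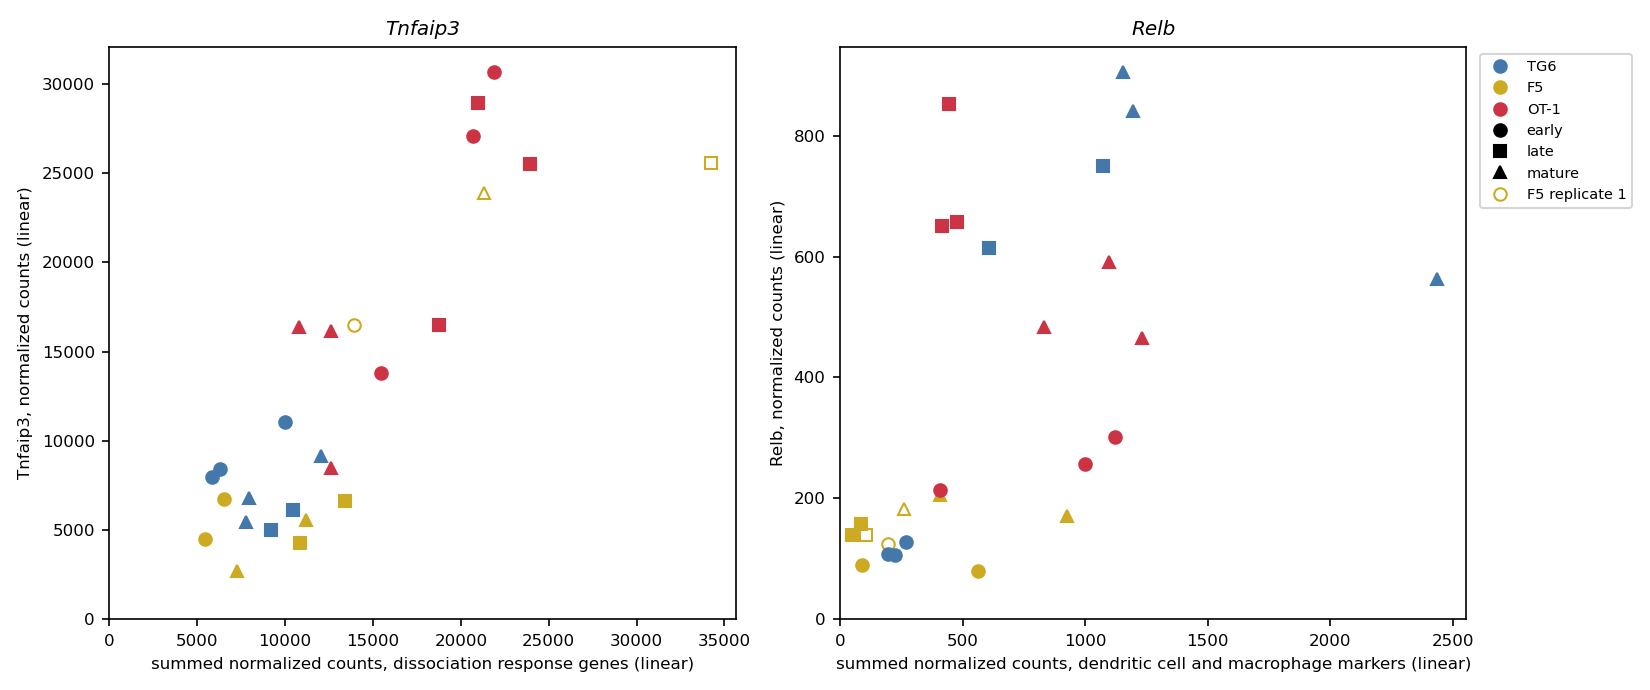
Left, Tnfaip3 against the summed normalized counts of 11 genes known to respond to tissue dissociation; right, Relb against the sum of 10 dendritic cell and macrophage markers, with 1 point per library on linear axes, colour for line and symbol for stage, and open symbols for F5 replicate 1. The F5 replicate 1 libraries lie to the right of the other F5 libraries in the left plot, up to 34208, and late OT-1 cells hold 651 to 852 of Relb at marker sums of 415 to 477, early OT-1 cells 214 to 302 at 408 to 1122.

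Nfkbia (chromosome 12, 55489410 to 55492647, minus strand), the inhibitor that canonical signals destroy and then make anew, was not called between OT-1 and TG6. Early libraries held 2093, 2102 and 3082 in TG6, 1644, 1700.1 and 1751 in F5 and 2362, 4106 and 2444 in OT-1. TG6 and OT-1 overlapped (0.27 ± 0.27, adjusted p = 0.486). OT-1 lay above F5 (0.76 ± 0.27, adjusted p = 0.0672), which was called without F5 late replicate 1 (0.0293). Late libraries held 1468 and 1822 in TG6, 1769.7, 953 and 793 in F5 and 2339, 3809 and 2649 in OT-1, and OT-1 was above both other lines. OT-1 over F5 was called (1.38 ± 0.27, adjusted p = 0.000586) and OT-1 over TG6 was not (0.81 ± 0.30, adjusted p = 0.0716) unless F5 late replicate 1 was left out of the shared fit (0.0328). Mature libraries held 1916, 2236 and 2013 in TG6, 1559.9, 1030.0 and 895 in F5 and 1249, 1803 and 1379 in OT-1, with TG6 above both other lines. F5 against TG6 in mature cells was -0.86 ± 0.27, adjusted p = 0.0572, and it was called without any 1 of F5 mature replicate 1, F5 late replicate 1 or 3 or OT-1 early replicate 2 (adjusted p 0.0219 to 0.0443). From late to mature cells Nfkbia fell in OT-1 (-0.98 ± 0.27, adjusted p = 0.0108), a call lost without OT-1 late replicate 2 (adjusted p = 0.0714). The step from early to late cells in F5 was -0.62 ± 0.27, adjusted p = 0.0905, and the fall was called with the replicate number as a block (0.00967) and without F5 late replicate 1 (0.00805).

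Tnfaip3 (chromosome 10, 19000910 to 19015657, minus strand) had the widest spread between libraries of a group, and its order of libraries repeated from stage to stage in F5. Early libraries held 7962, 8429 and 11027 in TG6, 16512, 4500.5 and 6727 in F5 and 27071, 30684 and 13792 in OT-1. Late libraries held 5024 and 6089.7 in TG6, 25555, 4258 and 6617 in F5 and 25521, 28948 and 16500.2 in OT-1, and mature libraries 5453, 6792 and 9132 in TG6, 23885, 2691 and 5546 in F5 and 16136, 16367 and 8481 in OT-1. F5 replicate 1 was the highest and F5 replicate 2 the lowest of F5 at all 3 stages, and OT-1 replicate 3 was the lowest of OT-1 at all 3. In early and late cells every OT-1 library was above every TG6 library, but neither difference was called (1.32 ± 0.63, adjusted p = 0.128 and 2.06 ± 0.71, adjusted p = 0.0536). In mature cells OT-1 and TG6 overlapped. The late difference was called without any 1 of F5 early replicate 1, F5 late replicate 1 or 2, F5 mature replicate 1 or 2 or TG6 mature replicate 3 (adjusted p 0.0195 to 0.0486), and both were called in a fit of those 2 groups alone (0.0156 and 0.00885). Without all F5 replicate 1 libraries, a choice made after seeing the data, OT-1 was called higher than TG6 in early (adjusted p = 0.00678) and late cells (0.000856). In the fit without F5 replicate 1, OT-1 was also higher than F5 by 2.03 in early, 2.12 in late and 1.76 in mature cells (adjusted p = 0.00111, 0.000425 and 0.00338), none of which was called with them (0.13, 0.131 and 0.333). The 11 dissociation response genes, such as Jun and Fos, moved with Tnfaip3 in part. They summed to 13898, 34208 and 21320 in the F5 replicate 1 libraries at the early, late and mature stages and to between 5422 and 13393 in the other F5 libraries. In TG6 their median sum was 6287 in early and 9817 in late cells, while Tnfaip3 was lower in the late libraries. In early cells the 11 genes summed to 5837 to 10001 in TG6 and 15471 to 21867 in OT-1, and 6 of them were called higher in OT-1 (15.4% of all genes). In late cells they summed to 9200 and 10435 in TG6 and 18759 to 23960 in OT-1, with 4 of the 11 called higher (9.34% of all genes), and in mature cells to 7785 to 12039 and 10774 to 12635. Their part in Tnfaip3, Rel, Nfkbia and the other members was not tested.

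**Figure D5:**
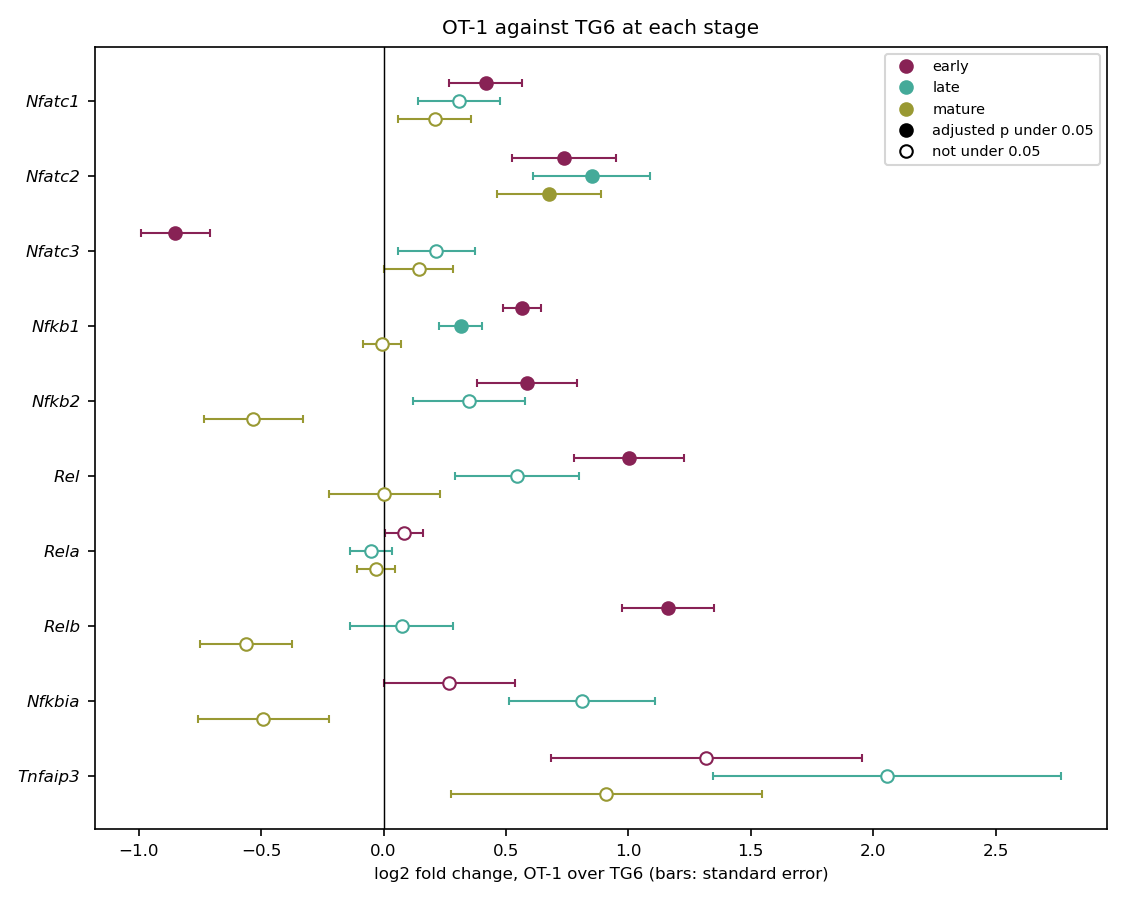
Log2 fold change of OT-1 over TG6 (x axis) for each member at early, late and mature stages, with the standard error as bars and filled points where the adjusted p was under 0.05. Relb goes from 1.16 in early to -0.56 in mature cells and Nfatc3 from -0.85 to 0.14, while Nfatc2 stays between 0.68 and 0.85.

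The difference between early and mature cells in the contrast of OT-1 with TG6 was tested directly. It was called for 4 of the 10 members (3 higher and 1 lower in early cells, against 2.91% and 1.28% of all genes). The log2 fold change was greater in early cells by 1.73 ± 0.27, adjusted p = 0.000326 for Relb, 1.12 ± 0.29, adjusted p = 0.0273 for Nfkb2 and 0.57 ± 0.11, adjusted p = 0.00276 for Nfkb1, and lower for Nfatc3 (-0.99 ± 0.20, adjusted p = 0.00384). Rel was not called (1.00 ± 0.32, adjusted p = 0.0906), but it was without OT-1 early replicate 3 (0.0302) or TG6 mature replicate 3 (0.0467). The Nfkb2 call was lost without any 1 of 8 early or mature libraries of these lines (adjusted p 0.0529 to 0.0955). For F5 against TG6, which shares the TG6 libraries and was added after seeing the data, the difference was called for Relb (1.78 ± 0.27, adjusted p = 0.000229), Nfkb2 (1.15 ± 0.29, adjusted p = 0.0229) and Nfkb1 (0.94 ± 0.11, adjusted p = 2.37e-05), against 3.05% of all genes in this direction. The Nfkb2 call was lost without F5 early replicate 2, TG6 mature replicate 2 or TG6 early replicate 1 or 2 (adjusted p 0.0535 to 0.064) and without all F5 replicate 1 libraries (0.0695). Nfatc3 (-0.67 ± 0.20, adjusted p = 0.059) was called without any 1 of 4 libraries, F5 mature replicate 2, F5 late replicate 1 or 3 or TG6 mature replicate 3 (adjusted p 0.0022 to 0.0491). It was also called under 5 of the 12 other settings. For OT-1 against F5 it was called by limma for 0 members (1.64% of all genes in either direction), with Nfkb1 under an unadjusted p of 0.05 (0.0033).

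The other genes of these pathways were followed in 8 lists of 108 genes. Between OT-1 and TG6 at early positive selection, 40 of the 98 that passed the filter were called, against 27.8% of all genes (15.4% higher and 12.4% lower). Of 22 kinases and adaptors of the routes to NF-kB, a list that also holds Traf3, 4 were called higher and 6 lower in OT-1. The median log2 fold change of the list was -0.10 (all genes -0.0022). Prkcq, the protein kinase C of the T cell synapse, was at 9654 ± 90 in OT-1 and 5138 ± 209 in TG6 (mean ± SD, n = 3; 0.91 ± 0.10, adjusted p = 5.54e-07), and Malt1, a protease of the T cell receptor pathway to NF-kB, at 1297 ± 28 and 802 ± 48.5 (0.69 ± 0.15, adjusted p = 0.00121). Traf3, which holds the noncanonical pathway in check, was also higher (0.60 ± 0.14, adjusted p = 0.00218), and Tab1, a partner of the kinase TAK1, was lower (-0.47 ± 0.11, adjusted p = 0.00223). Traf3 rose from early to late cells in TG6 (1.12) and OT-1 (1.12) and was at 0.32 ± 0.14, adjusted p = 0.0882 in F5.

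Of 17 other IkB proteins and brakes on NF-kB, 6 were called higher and 0 lower in early OT-1 cells, with a median of 0.10. Each list count of this paragraph is to be read against 15.4% of all genes called higher and 12.4% lower. Nfkbid, a nuclear IkB protein of thymocytes, was at 714 ± 142 in OT-1 and 381 ± 64.1 in TG6 (0.90 ± 0.17, adjusted p = 0.000436). Tnip2, a partner of A20, was higher by 0.73 (adjusted p = 0.0109) in OT-1 over TG6, Nfkbiz by 0.64 (0.0489) and Nfkbib, which encodes IkBβ, by 0.44 (0.00118), all on the log2 scale by limma. Of the 17 tested among 18 NF-kB target genes, 7 were called higher and 4 lower, with a median of 0.55. Ccnd2, which encodes cyclin D2, was at 940.4 ± 1352 in OT-1 and 42 ± 14.3 in TG6 (3.27 ± 0.69, adjusted p = 0.00132), with OT-1 libraries from 145 to 2502. Gadd45b, a stress response gene, was higher in OT-1 (1.83 ± 0.52, adjusted p = 0.0121). In the other direction, Bcl2l1, whose product Bcl-xL keeps CD4+CD8+ thymocytes alive, was at 1242 ± 112 and 3905 ± 210.2 (-1.65 ± 0.20, adjusted p = 1.72e-06), and Sdc4 was lower (-1.80 ± 0.47, adjusted p = 0.00659). Of 12 TNF receptors that signal to NF-kB, 2 were called higher (Tnfrsf1b 1.26 and Tnfrsf25 1.14) and 1 lower (Tnfrsf1a -1.21), with a median of 0.15.

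The early counts on the NFAT side are likewise to be read against 15.4% of all genes called higher and 12.4% lower. Of the 7 tested genes of calcineurin and calmodulin, 4 were called higher in early OT-1 cells and 0 lower, with a median of 0.50. Among the 4 were Ppp3ca, the calcineurin catalytic subunit α (0.71 ± 0.20, adjusted p = 0.00944) and Ppp3cc, another catalytic subunit (0.50 ± 0.17, adjusted p = 0.0321). In mature cells Ppp3ca was called higher in OT-1 too (0.80 ± 0.20, adjusted p = 0.0121). Of the 12 tested among 14 calcineurin inhibitors and kinases that oppose NFAT, 2 were called higher, Rcan1 (0.45) and Csnk1a1 (0.19), and the median was -0.11. Of the 2 other family members, Nfat5 and Nfatc4, 1 passed the filter and was not called. Among 10 tested of 15 NFAT target genes, 3 were called higher and 1 lower, with a median of 1.14. Pdcd1, which encodes the inhibitory receptor PD-1, was at 452 ± 141 in OT-1 and 87.9 ± 7.04 in TG6 (2.31 ± 0.43, adjusted p = 0.000363), Tox, a factor needed in T lineage choice, was higher in OT-1 (0.62 ± 0.11, adjusted p = 0.000297), and Lag3, another inhibitory receptor, was at 23 ± 4.81 and 156 ± 13.9 (-2.72 ± 0.53, adjusted p = 0.000567).

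From early to late positive selection the 22 kinases and adaptors, Traf3 included, gave 8 called higher and 2 lower in TG6, 7 and 0 in F5 and 10 and 0 in OT-1. The 17 brakes on NF-kB gave 6 and 2, 4 and 3, and 6 and 3. NF-kB targets gave 8 higher and 3 lower in TG6, 5 and 3 in F5 and 5 and 4 in OT-1, with medians of 1.21, 0.16 and 0.22. Calcineurin and calmodulin genes gave 2 higher and 2 lower, 0 and 3, and 2 and 3 in these lines, and NFAT targets 3 and 1, 3 and 1, and 2 and 2. Of all genes, 12.1 to 12.7% were called higher and 13.3 to 14% lower in these steps. From late to mature OT-1 cells, 0 of the 22 kinases and adaptors were called higher and 6 lower, and 0 of the 17 brakes higher and 5 lower. Of the 7 calcineurin and calmodulin genes, 4 were called higher and 0 lower, against 14% of all genes higher and 10.4% lower. No list was tested against another. The 10 cell division genes moved with these steps: all 10 fell from early to late cells in each line and rose from late to mature OT-1 cells. They also differed between lines, with sums in early cells of 40529 to 43909 in TG6, 61343 to 79543 in F5 and 58189 to 83936 in OT-1. In mature cells the sums were 15585 to 61806, 17110 to 49564 and 66173 to 75456. Their part in the steps and in the comparisons of lines was not tested.

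Genes with the most similar profiles were sought among 9905 genes by Pearson's r of group means over the 9 groups, which share their libraries. The values are descriptions, with no test. Relb had Phf11c (0.993) and Irf2bp2 (0.989) as the nearest, and Nfkb2 had Phf11c (0.978) and Relb itself (0.978). Like Relb, Phf11c was low in F5 at every stage, with means of 123, 204 and 200 normalized counts from early to mature, against 130, 773 and 850 in TG6 and 332, 939 and 698 in OT-1. For Nfkb1 the nearest were A230050P20Rik (0.976) and Skil (0.973), for Rel Tes (0.972) and Arid5b (0.967), and for Rela Usf2 (0.982) and Plekho1 (0.964). For Nfatc1 they were Rasa3 (0.971) and Bin2 (0.970), for Nfatc2 Plaur (0.987) and Klhl2 (0.987) and for Nfatc3 Trak1 (0.974) and B230118H07Rik (0.973). Nfkbia was least matched, with Nfkbil1 (0.913) and Slc39a1 (0.909), and Tnfaip3 had Dusp10 (0.977) and Dgat1 (0.977).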

How the data were processed

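Per the labels, thymocytes were dissociated, stained and sorted, and total RNA was sequenced by BGI Genomics on Illumina HiSeq instruments. The submitters' processing notes name Trimmomatic 0.32, Bowtie2 2.3.2, RSEM 1.2.31, DESeq2 and the mm10 genome. The authors deposited 1 table of normalized counts, RSEM estimates scaled by DESeq2's median of ratios, so the signal values are not whole reads. Of the values above 0, 42.4 to 44.3% were whole multiples (within 0.01) of each library's commonest low value, so reads were not recovered and no count test was run. Whether counting used strand is not given in the sources used here.

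Values were tested as log2(value + 1) with limma 3.58.1 in R 4.3.3 (1 mean per group, 9 groups, 17 residual degrees of freedom, trended prior variance), with Benjamini-Hochberg adjustment over all 16372 genes within each comparison. Gene positions and lengths are from GENCODE vM21 (GRCm38, 1-based). The 10 members and the lists were chosen with earlier results of these data known. Named genes are the members, from each list up to 4 genes called between OT-1 and TG6 at the early stage with the largest change and a mean of at least 100 in the higher group, for each member the 2 genes with the highest r, and the 4 sorting marker genes; some that met the rule are not reported here.

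The labels number biological replicates from 1 to 3 in each line and do not say that a number marks 1 mouse at all stages. Deviations from group means of same-number libraries correlated at 0.106 to 0.34 within F5 (9 of 9 pairs over 0.1). Within OT-1 they correlated at 0.0189 to 0.178 (5 of 9) and within TG6 at 0.023 to 0.274 (2 of 7). Different numbers gave at most 0.0921. The main fit had no block, so steps between stages were tested unpaired in every line, F5 included. As an alternative, the replicate block was set in all lines at once. The alternatives were other pseudocounts, filters, scalings, sample sets and variance priors, a replicate block, each library left out in turn, and 2 settings and 2 comparisons added after seeing the data.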

Additional observations from a re-analysis of the deposited data

Results flagged for a closer look

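Early and mature cells gave different fold changes between lines, by a limma test of the difference itself, for 4 members between OT-1 and TG6 and for 3 between F5 and TG6. Between OT-1 and TG6, the log2 fold change in early cells minus that in mature cells was 1.73 ± 0.27, adjusted p = 0.000326 for Relb, 1.12 ± 0.29, adjusted p = 0.0273 for Nfkb2, 0.57 ± 0.11, adjusted p = 0.00276 for Nfkb1 and -0.99 ± 0.20, adjusted p = 0.00384 for Nfatc3. Between F5 and TG6 it was 1.78 ± 0.27, adjusted p = 0.000229 for Relb, 1.15 ± 0.29, adjusted p = 0.0229 for Nfkb2 and 0.94 ± 0.11, adjusted p = 2.37e-05 for Nfkb1. Both contrasts share the TG6 libraries. The Nfkb2 call was lost without any 1 of 8 libraries between OT-1 and TG6 (adjusted p up to 0.0955) and any 1 of 4 between F5 and TG6 (up to 0.064).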

How the results depend on the processing

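No difference of a member changed its sign past the threshold under any of the 26 fits that left out 1 library or the 12 other settings. The number of members called moved as follows when 1 library was left out: 0 to 4 (2 with all libraries) between OT-1 and TG6 in late and 0 to 3 (1) in mature cells, 1 to 6 (5) between OT-1 and F5 in early cells, 1 to 2 (1) between F5 and TG6 in early and 1 to 3 (3) in late cells, 2 to 7 (7) from early to late in F5, and from late to mature 0 to 1 (0) in TG6, 0 to 2 (1) in F5 and 0 to 4 (3) in OT-1. The 40 pathway genes called between OT-1 and TG6 in early cells became 26 to 45, the 26 without TG6 early replicate 2. Between OT-1 and TG6, 1 late member was called after scaling to equal totals or quantile normalization and 4 without F5 replicate 1. In mature cells 0 were called with no filter, with quantile normalization, in a fit of those groups alone, with an untrended prior variance or without OT-1 replicate 3. Between OT-1 and F5, 3 early members were called with no filter or an untrended prior variance and 8 without F5 replicate 1. Between F5 and TG6, 2 early members were called after quantile normalization, and 1 late member in a fit of those groups alone. From early to late in F5, 3 were called in a fit of those groups alone. From late to mature, 1 was called in TG6 without F5 replicate 1 and 0 in F5 with no filter, those groups alone, an untrended prior variance, no F5 replicate 1 or no OT-1 replicate 3. With the replicate block as a factor or a random effect, 1 member was called from late to mature in TG6 and 1 in the early against mature test of OT-1 and F5. With the block as a factor 2 were called from late to mature in F5 and 6 in OT-1. Between lines the block as a factor joins different animals that share only a number. Within lines, the median correlation of same-number libraries was 0.227 in F5, 0.111 in OT-1 and 0.0507 in TG6. For different numbers it was -0.102, -0.0531 and -0.0298. With the block as a factor these calls were gained: between lines Nfkb1 in early OT-1 against F5 cells (adjusted p = 0.0473) and Tnfaip3 in late OT-1 against TG6 cells (0.0259), from early to late in TG6 Nfatc1 (0.0242) and Tnfaip3 (0.0356) and in OT-1 Nfatc1 (0.0153), from late to mature in TG6 Nfatc2 (0.00706) and in OT-1 Nfatc2 (0.0478), Relb (0.0384) and Tnfaip3 (0.000814), and early against mature Rel between OT-1 and TG6 (0.00256), Nfkb1 between OT-1 and F5 (0.0417) and Nfatc3 between F5 and TG6 (0.00482). As a random effect, Nfkbia was also called in early OT-1 against F5 cells (0.0467) and mature F5 against TG6 cells (0.038). Scaling to equal totals moved the median of all genes between OT-1 and TG6 to -0.11 in early and -0.13 in late cells, and the share of called genes that were higher in OT-1 from 55.3 to 40.9% and from 60.1 to 38.9%. The calls of Nfatc1 (adjusted p = 0.105) and Nfkb2 (0.0844) in early and of Nfkb1 (0.21) in late cells were lost with it. In mature cells the share went from 47.9 to 30.5%. Against F5 it went from 61.5 to 43.7%, 56.8 to 46.1% and 56.9 to 34.4% at the 3 stages. In F5 against TG6 mature cells it went from 32.2 to 42.2%, and from late to mature TG6 cells from 65.1 to 49.8%. Depth in reads is unknown from normalized values, so no counting interval is given.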
